A study of Mus musculus with 4 samples.

Results

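NONMMUG001516.2 is 1 of 50821 features listed in at least 1 of 4 deposited tables of long non-coding RNA (lncRNA) from mouse ovary. It was chosen by its identifier, after its level had been seen to lie near 100 FPKM (fragments normalised to feature length and to the total of the library) in both libraries of day 3 ovary and below 5 FPKM in both libraries of cultured ovary. Its level in the 2 groups is therefore a description and is given with no test. The day 3 group held 2 libraries of total RNA from ovaries of infant mice aged 3 days, described by the labels as before follicle initiation. The cultured group held 2 libraries from ovaries isolated at 3 days of age and then kept in vitro for 8 days, described as after initiation, with initiation assessed on stained sections. Strain, genotype and the number of animals behind each library are not stated in the labels. The groups differ at once in time after birth and in culture, which cannot be told apart, and the spread between libraries of a group may be technical.

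Long non-coding RNAs are transcripts that are not known to be translated into protein. Some act in the nucleus on chromatin and transcription, others bind proteins or other RNAs in the cytoplasm, and for most no function is established. In the newborn mouse ovary, oocytes become enclosed singly by flat pregranulosa cells to form primordial follicles, and follicle initiation is the step at which some of them start to grow and their somatic cells become cuboidal. NONMMUG is the prefix of mouse genes in the NONCODE database, and NONMMUT that of their transcripts. The tables do not pair identifiers with gene symbols, and no NONCODE identifier occurred in the mouse annotation and sequence tables at hand (0 lines matched). The position, strand, sequence and function of NONMMUG001516.2 were therefore not analysed here, and neither were cell type markers of the ovary.

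Every table listed NONMMUG001516.2 with the same pair of transcripts, NONMMUT002253.2 and NONMMUT076110.1, and with a length of 666 bases. The deposited length is a mean over transcripts and often moves between libraries. Of 2997 features with 2 transcripts that were listed in all 4 libraries, 849 had the same length in each, as this one did. No other feature listed either transcript (0 features), and no other feature had counts within 10% of its counts in every library (0 features). Its estimated counts were not whole numbers, at 4248.38 and 2676.99 in day 3 libraries 1 and 2 and 88.92 and 99.33 in cultured libraries 1 and 2. Whether reads were divided between it and other features was not tested.

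NONMMUG001516.2 was abundant at day 3 and low, but still present, after culture. Its FPKM was 142.37 in day 3 library 1 and 90.49 in day 3 library 2. It was 3.29 in cultured library 1 and 3.95 in cultured library 2. Both day 3 libraries were high, both cultured libraries were low, and the groups did not overlap. The day 3 mean was 116 ± 36.7 FPKM and the cultured mean was 3.62 ± 0.467 FPKM (both SD, n = 2), a ratio of 32.2 between means. Between single libraries the ratio ran from 22.9, for day 3 library 2 over cultured library 2, to 43.3, for day 3 library 1 over cultured library 1. In a bulk ovary, fewer cells of a type that holds an RNA and less of that RNA per cell cannot be told apart.

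**Figure D1:**
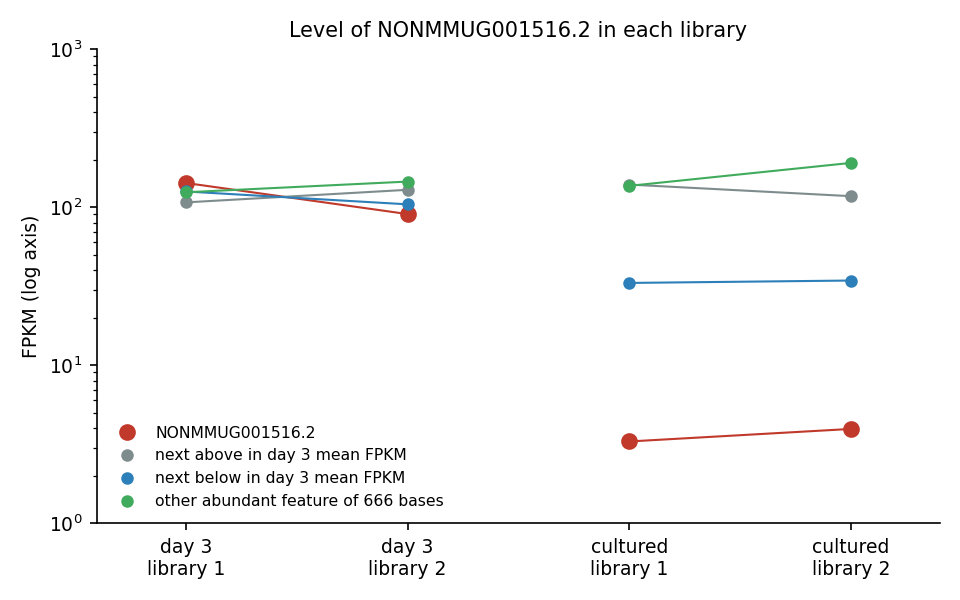
FPKM (log axis) in each of the 4 libraries for NONMMUG001516.2, the features next above and next below it in mean FPKM at day 3, and the other abundant feature of 666 bases; each point is 1 library and lines join libraries of a group. The 4 features lie together at day 3, and after culture NONMMUG001516.2 lies at 3.29 and 3.95 FPKM, below the other features plotted.

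The share of counts rests on the same reads as the FPKM and is given to show the depth behind each value. NONMMUG001516.2 took 0.0160% of the listed counts in day 3 library 1 (Wilson 95% interval 0.0155 to 0.0165%) and 0.0102% in day 3 library 2 (0.00979 to 0.0106%). In cultured library 1 it took 0.000425% (0.000345 to 0.000523%), and in cultured library 2 it took 0.000545% (0.000446 to 0.000662%). Each interval rests on 1 library and treats its reads as independent, so the spread between libraries is left out. Reads were counted with no molecular identifier to show which came from the same molecule. The counting error may therefore be larger than the intervals show. The listed counts came to 26566784 for day 3 library 1, 26324839 for day 3 library 2, 20939363 for cultured library 1 and 18215834 for cultured library 2.

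Across all features, NONMMUG001516.2 had a log2 fold change of -5.30 (SE 0.505) in edgeR's quasi-likelihood fit on the counts with TMM scaling (trimmed mean of M-values), which is 39.3-fold lower after culture. With the library totals behind the deposited FPKM values in place of TMM it was -4.99 (SE 0.425), while the median over the 8557 features tested moved from 0.08 to 0.45. In the TMM fit 14.4% of features were called at an adjusted p below 0.05, 5.87% higher and 8.5% lower after culture (502 and 727 features), and with the library totals 8.18% were called, 4.96% higher and 3.23% lower (424 and 276 features). The number of features called fell to 586 when day 3 library 1 was left out and to 775 when cultured library 1 was left out. The FPKM of the groups did not overlap for 37.9% of tested features in the higher direction and 18.8% in the lower direction. NONMMUG001516.2 was picked for this contrast, so its own place among the called and separated features is no result.

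The libraries of a group differed from each other for this feature, although far less than the groups did. Its CPM, the count scaled to a common library size with the TMM factors, averaged 163 ± 57.7 for the day 3 pair and 4.18 ± 1.65 for the cultured pair (both SD, n = 2). Day 3 library 1 was 1.67-fold above day 3 library 2 on this scale. Of 148 features whose summed day 3 counts lay within 2-fold of its own, itself included, 17 differed more between these libraries. Their middle range, from the lower to the upper quartile, ran from -0.40 to 0.31 on the log2 scale for library 1 over library 2, and NONMMUG001516.2 stood at 0.74. Cultured library 1 was the lower of its pair, and cultured library 2 was 1.77-fold above it on the TMM scale and 1.20-fold above it in FPKM. Cultured library 1 had the largest TMM factor, 1.45 against 1.03 for cultured library 2, and the CPM is divided by this factor. In the share of listed counts, which does not use the factor, cultured library 2 was 1.28-fold above cultured library 1.

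Its rank by FPKM among the listed features moved with its level. NONMMUG001516.2 ranked 50 of 38082 features in day 3 library 1 and 75 of 38351 in day 3 library 2. It ranked 1496 of 40042 in cultured library 1 and 924 of 35707 in cultured library 2. It therefore stood within the top 0.131% and 0.196% of features at day 3 and within the top 3.74% and 2.59% after culture. Among NONMMUG features alone the ranks were 47 and 67 at day 3 and 1312 and 779 after culture. The median listed feature had an FPKM of 0.11 and 0.12 in the day 3 libraries and 0.18 and 0.13 in the cultured libraries. NONMMUG001516.2 stood 1294-fold and 754-fold above that median at day 3, and it was still 18.3-fold and 30.4-fold above it after culture. The working name of this feature as one that is lost in culture goes beyond these values, since it ranked above 38546 listed features in cultured library 1 and above 34783 in cultured library 2.

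Features near its mean level at day 3 differed widely after culture. The feature next above it in mean day 3 FPKM, with 6 transcripts and a mean length of 748 bases, had 107.29 and 128.91 FPKM at day 3 and 139.11 and 117.46 FPKM after culture. The feature next below, with 3 transcripts and a mean length of 665 bases, had 125.8 and 104.3 FPKM at day 3 and 33.17 and 34.35 FPKM after culture. The first overlapped between the groups, while the second was lower in both cultured libraries, at a ratio of 3.41 between means. For the 36 other features with a mean day 3 FPKM within 1.5-fold of NONMMUG001516.2, the cultured means ran from 4.43 to 412 FPKM with a median of 126 FPKM. All 36 cultured means lay above its own, which its choice for a low cultured level favours. The lowest, that of LXLOC_007970, came from 5.35 and 3.52 FPKM, the second of which is below the 3.95 FPKM of NONMMUG001516.2 in cultured library 2.

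Features of the same length were mostly low. A further 30 features had a length of 666 bases, and 29 of them were below 3 FPKM in every library. The remaining one, NONMMUG066182.1, with a single transcript, had 124.34 and 145.32 FPKM at day 3 and 136.55 and 190.81 FPKM after culture. Its log2 fold change was 0.04, and it did not pass the test (edgeR, adjusted p = 0.968). It thus matched NONMMUG001516.2 in length and in the order of its day 3 level while its groups overlapped.

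The ratios of the abundant day 3 features show the range in which NONMMUG001516.2 was picked for its low cultured level, so its own place among them restates the choice. A total of 95 features had at least 50 FPKM in both day 3 libraries, and their log2 ratio of mean FPKM, cultured over day 3, had a median of 0.04. The log2 ratio of NONMMUG001516.2 was -5.01, the next lowest was -3.05, and the highest was 1.75. Of these 95 features, 34 were lower and 29 were higher in both cultured libraries than in both day 3 libraries. Over all tested features the shares were 18.8% lower and 37.9% higher. In the TMM fit 18 of the 95 were called lower and 0 higher, against 8.5% and 5.87% of all tested features. The choice by a high day 3 level favours the lower direction. On a related scale, edgeR with the FPKM library totals gave a median log2 fold change of 0.45 over all tested features. With a minimum of 30 FPKM, 135 features qualified, and the next lowest log2 ratio was -4.02. Over all 8557 tested features, 28 had a lower fitted log2 fold change than NONMMUG001516.2. The most abundant of those 28 at day 3, NONMMUG040286.2, had a mean of only 7.91 FPKM there.

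**Figure D2:**
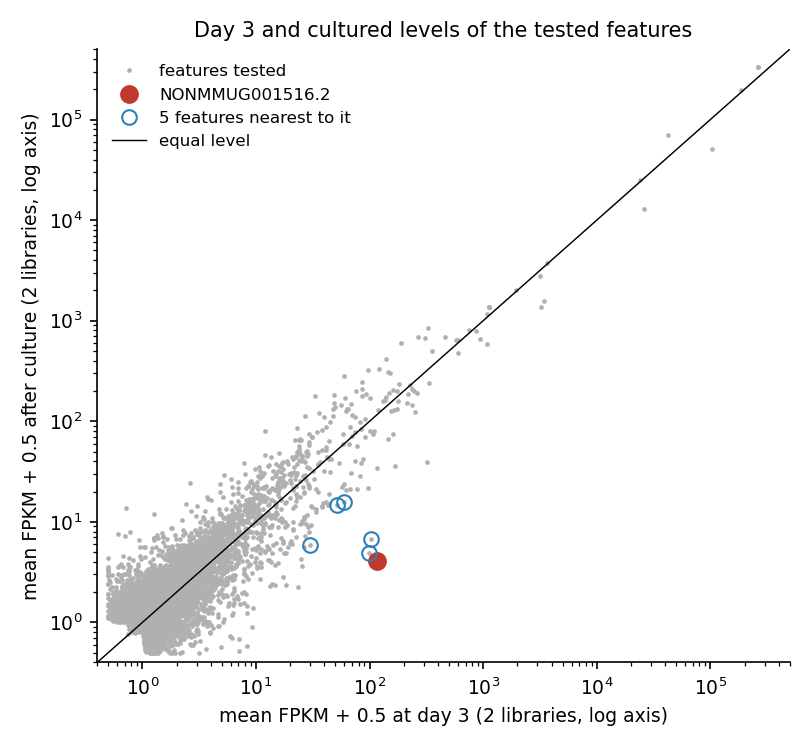
Mean FPKM + 0.5 at day 3 against mean FPKM + 0.5 after culture (both log axes, 2 libraries per mean) for the 8557 features tested; the red point is NONMMUG001516.2, open circles are the 5 features nearest to it, and the line marks equal level. NONMMUG001516.2, at means of 116 and 3.62 FPKM, lies far below the line at the edge of the cloud.

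The choice of NONMMUG001516.2 named a cultured limit of 5 FPKM but only an approximate day 3 level. A day 3 limit of 50 FPKM was set here, and the features around these limits are given for scale. With at least 50 FPKM in both day 3 libraries and below 5 FPKM in both cultured libraries, it was the single feature inside. LXLOC_007970, of 580 bases, lay just outside, with 24.52 and 170.64 FPKM at day 3 and 5.35 and 3.52 FPKM after culture. LXLOC_091554, of 304 bases, missed them in the same libraries, with 33.48 and 170.28 FPKM at day 3 and 7.75 and 4.81 FPKM after culture. LXLOC is the second kind of identifier in the tables, and no label explains it. Among features with at least 50 FPKM in both day 3 libraries, LXLOC_004509 came next by cultured level, at 15.76 and 15.1 FPKM. Among features below 5 FPKM in both cultured libraries, NONMMUG009962.2 and NONMMUG043105.2 came next by day 3 mean. The first had 22.6 and 26.96 FPKM at day 3, and the second had 32.7 and 13.23 FPKM.

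LXLOC_091554 and LXLOC_007970 led when likeness was measured over all 4 libraries. Likeness was the Euclidean distance of log2(FPKM + 0.5) over the 4 libraries, so both level and change count, and the median distance of tested features was 9.46. The nearest was LXLOC_091554, at a distance of 2.54, followed by LXLOC_007970 at 2.75. These differed from NONMMUG001516.2 at day 3, since both were high in library 2 and several-fold lower in library 1, whereas NONMMUG001516.2 was higher in library 1. The third was NONMMUG002062.2, with 3 transcripts and a mean length of 2324 bases, at a distance of 2.85. It had 30.78 and 28.33 FPKM at day 3 and 5.54 and 5.21 FPKM after culture. The fourth was NONMMUG079314.1, of 555 bases, at a distance of 3.08, with 62.53 and 40.83 FPKM at day 3 and 14.17 and 14.22 FPKM after culture. The fifth was LXLOC_004509, of 568 bases, at a distance of 3.08, with 64.52 and 54.51 FPKM at day 3. These 5 features were lower in both cultured libraries than in both day 3 libraries, which the choice by likeness fixes, and their ratios of mean FPKM ran from 3.64 to 22.0, below the 32.2 of NONMMUG001516.2.

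**Figure D3:**
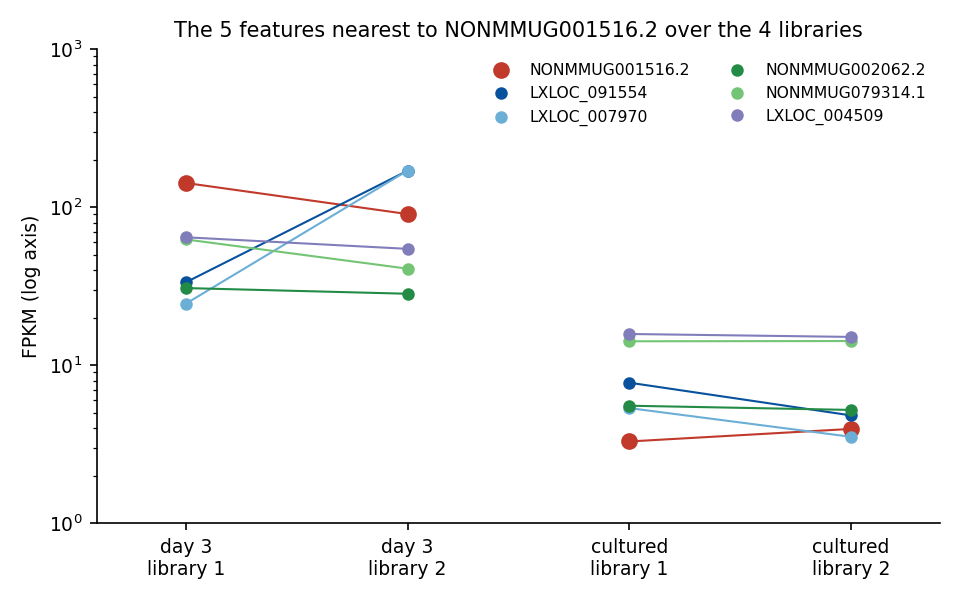
FPKM (log axis) in each of the 4 libraries for NONMMUG001516.2 and the 5 features nearest to it; each point is 1 library and lines join libraries of a group. In day 3 library 2, LXLOC_091554 and LXLOC_007970 lie above it, at 170.28 and 170.64 against 90.49 FPKM, and in day 3 library 1 they lie below it. The other features start lower or stay higher after culture.

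When only the shape of the profile was compared, other features came first. With each feature's mean over the libraries subtracted, 0 of the 5 features above remained among the nearest 5, and the order began with NONMMUG040286.2. That feature had 8.61 and 7.22 FPKM at day 3 and 0.17 and 0 FPKM after culture, from 2 and 0 cultured counts. For cultured values this low, the shape depends on the 0.5 FPKM added before the log. LXLOC_006185, a single transcript of 15977 bases, came second by shape and first on TMM-scaled counts. Its counts were 5219.63 and 5004.84 at day 3 and 110.41 and 134.11 after culture, against 4248.38 and 2676.99 and then 88.92 and 99.33 for NONMMUG001516.2. Per length their levels were far apart, since LXLOC_006185 had 6.66 and 6.39 FPKM at day 3 and 0.16 and 0.2 FPKM after culture. The third by shape was NONMMUG047381.1, of 659 bases, with 10.78 and 6.6 FPKM at day 3 and 0.52 and 0.28 FPKM after culture. Like NONMMUG001516.2, NONMMUG047381.1 and the features ahead of it were higher in day 3 library 1 than in day 3 library 2. The choice by shape favours this order, but NONMMUG008484.2, the fifth by shape, had the opposite one, at 3.98 and 9.14 FPKM. After culture NONMMUG047381.1 was higher in library 1, whereas NONMMUG001516.2 was higher in library 2.

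Features of neighbouring NONMMUG numbers were then examined, since the choice of NONMMUG001516.2 did not use them. Neighbouring numbers need not be neighbours in the genome, and positions were not analysed here. Of the 50 numbers within 25 of its own, 25 were listed in at least 1 library and 17 in all 4. None approached its day 3 level, and the highest day 3 value among these 25 features was 10.99 FPKM. In every library, 16 of the 25 stayed below 1 FPKM and 24 stayed below 5 FPKM. Only 7 reached 0.5 FPKM in 2 or more libraries and were tested, of which 1 rose, 0 fell and the other 6 stayed above the threshold (edgeR quasi-likelihood test, Benjamini-Hochberg adjustment over 8557 features), against 5.87% and 8.5% of all features. With no filter on low values, 3 of the 25 were called by edgeR, against 2540 of 50775 features. NONMMUG001536.2 and NONMMUG001499.2, the latter with overlapping groups, were called higher. NONMMUG001504.2, counted in day 3 library 1 alone, was called lower. The median log2 fold change of the 7 was 0.33, against 0.08 for all tested features. The FPKM of the groups did not overlap for 3 of the 7 in the higher direction and 1 in the lower, against 37.9% and 18.8% of all features.

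Within 10 numbers, 9 features were listed, 8 of them with a single transcript. NONMMUG001515.2, the number just below, holds transcript NONMMUT002252.2 of 2356 bases, which directly precedes NONMMUT002253.2 in number. It had 0.08 and 0.07 FPKM at day 3 and 0.13 and 0.28 FPKM after culture. NONMMUG001522.2, the next listed number above, had 0.02 and 0.04 FPKM at day 3 and 0.11 and 0.04 FPKM after culture. Neither came near NONMMUG001516.2 in any library, and both were too low to be tested. NONMMUG001510.2, the one neighbour of the 9 with 2 transcripts, had 0.42 and 0.25 FPKM at day 3 and 0.21 and 0.12 FPKM after culture. NONMMUG001511.2 stayed between 0.01 and 0.04 FPKM in the 4 libraries. NONMMUG001512.2 and NONMMUG001525.2 were each listed in a single day 3 library, at 0.03 and 0.02 FPKM. These 4 features were likewise not tested.

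Of the features within 10 numbers, 3 were tested. NONMMUG001506.2 had 0.67 and 0.76 FPKM at day 3 and 1.27 and 0.99 FPKM after culture, and its log2 fold change was 0.33 (SE 0.397; adjusted p = 0.631 in edgeR). NONMMUG001507.2 had 0.71 and 1.05 FPKM at day 3 and 1.75 and 0.94 FPKM after culture, and its log2 fold change was 0.23 (SE 0.414; adjusted p = 0.759 in edgeR). The groups of the first did not overlap, those of the second did, and neither passed the test. NONMMUG001523.2, of 567 bases, had 0.76 and 0.89 FPKM at day 3 and 0.18 and 0.24 FPKM after culture. Both of its cultured libraries were below both day 3 libraries, with a log2 fold change of -2.27 (SE 0.738), and it did not pass the test (edgeR adjusted p = 0.0515). It entered the test through its day 3 libraries alone, the only ones at 0.5 FPKM or above, so a lower cultured level was favoured by the filter. Its counts were low, at 19.02 and 22 at day 3 and 4.02 and 5 after culture. By edgeR 0 of these 3 were called and 1 had an unadjusted p below 0.05, and DESeq2 and limma also called 0.

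Among the other tested neighbours, NONMMUG001536.2, 20 numbers above, was the one that rose. This feature of 991 bases had 3.75 and 10.99 FPKM at day 3 and 38.29 and 37.74 FPKM after culture. Both cultured libraries lay above both day 3 libraries, and the log2 fold change was 2.09 (SE 0.471, edgeR adjusted p = 0.00886), the opposite direction to NONMMUG001516.2. The day 3 libraries differed 2.91-fold in its counts. Without day 3 library 1 the log2 fold change was 1.53 and the call was lost (edgeR adjusted p = 0.232, in a range of 0.000151 to 0.232 over 13 alternatives). NONMMUG013142.2, with a mean length of 2622 bases, had counts within 10% of it in every library. Whether these features share reads, and so whether NONMMUG001536.2 is a separate gene, was not tested. NONMMUG001531.2, 15 numbers above, had 1.51 and 2.48 FPKM at day 3 and 4.19 and 2.62 FPKM after culture but missed the threshold, at a log2 fold change of 0.42 (SE 0.384; adjusted p = 0.519 in edgeR). NONMMUG001494.2 and NONMMUG001503.2, on the lower side, overlapped between the groups and missed it too, at -0.49 (adjusted p = 0.598) and 0.38 (adjusted p = 0.658), and each changed sign in an alternative.

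**Figure D4:**
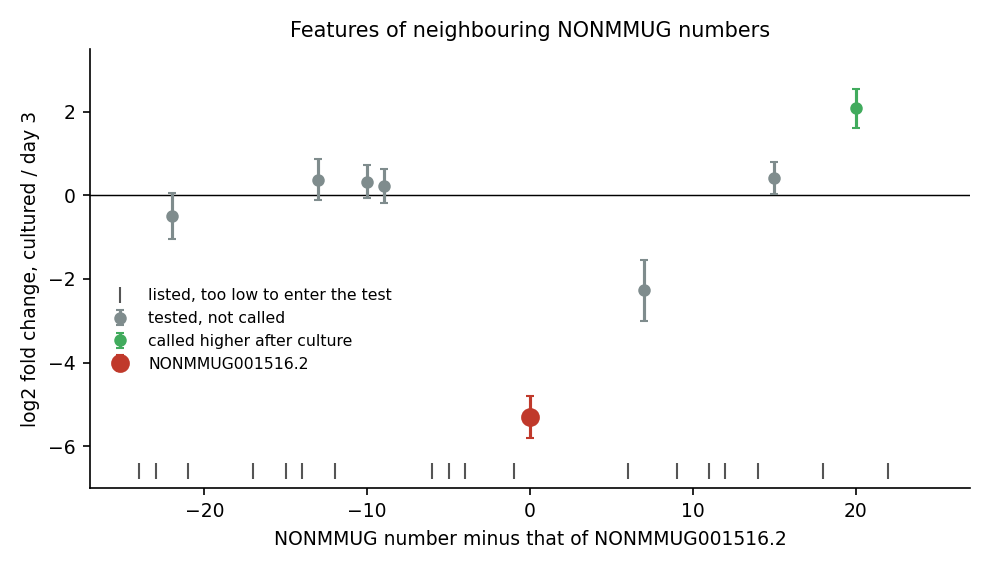
Log2 fold change, cultured over day 3, with its standard error (edgeR, TMM scaling) against the NONMMUG number minus that of NONMMUG001516.2; points are tested features and ticks at the bottom are listed features too low to enter the test. NONMMUG001516.2 lies at -5.30, and the 7 tested neighbours run from -2.27 to 2.09.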

How the data were processed

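Total RNA of mouse ovary was sequenced from strand-specific libraries on an Illumina HiSeq (labels' protocols). HISAT, Cufflinks and the build mm9 are named, with neither version nor role, in the submitters' processing notes. Each deposited table covers 1 library and gives a mean length, an FPKM and an expected count per listed feature, per the file headers. Expected counts were estimated by the authors with a tool not given in the sources used here. FPKM values are the authors' scaling of counts to length and library total. Features missing from a table were taken as 0.

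After rounding to whole numbers, the expected counts were fitted with edgeR 4.0.16 (R 4.3.3, TMM, quasi-likelihood F test, 2 libraries against 2) over features that reached an FPKM of 0.5 in 2 libraries or more, adjusted by Benjamini-Hochberg. The printed SE is the size of the log2 fold change divided by the square root of F. The fit was also run on simulated counts with a dispersion of 0.1 for every feature. Differences in spread between features or between libraries were therefore not covered. Library totals were recovered from the line of count over FPKM on length (41410677 to 49357745 per library). Alternatives used DESeq2 1.42.0, limma 3.58.1 on log2 FPKM with pseudocounts of 0.1, 0.5 and 1, other filters, a replicate block, and each library left out. Wilson intervals came from scipy 1.17.1.

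The feature, the neighbour windows of 10 and 25 numbers and the measure of likeness were chosen with earlier results of these data known. Features named were those listed within 10 numbers, those tested within 25, the 5 nearest in profile, those ranked next to it and those at the limits of the choice. The first features by profile shape and NONMMUG066182.1 were named after their values were seen.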

Additional observations from a re-analysis of the deposited data

How the results depend on the processing

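The log2 fold change of NONMMUG001516.2 was negative in all 13 alternatives run. Limma on log2(FPKM + pseudocount) gave -4.94, -4.80 and -4.64 with pseudocounts of 0.1, 0.5 and 1, the last 24.9-fold against 39.3-fold. These fits also scale by the FPKM library totals, which alone gave -4.99 in edgeR. Leaving out each library in turn gave -5.84 to -4.88. By expected count instead of FPKM, which favours longer features, its ranks were 79 and 147 at day 3 and 5411 and 2511 after culture. Of its 5 nearest features, 3 were kept with a pseudocount of 0.1, 0 by shape alone and 0 on TMM-scaled counts. Against 1229 features called (502 higher, 727 lower), the number was 700 (276 lower) with the FPKM library totals. It was 2540 (1133 and 1407) with no filter and 744 (309 and 435) at a minimum of 1 FPKM, with more or fewer features tested. Limma gave 741, with 338 lower, at 0.1, 380 lower at 0.5, and 747, with 356 lower, at 1, and the cause was not tested. Leaving out each library gave 586 to 1260 called, 232 to 412 higher and 354 to 848 lower. Among the neighbours within 25 numbers, 3 of 25 were called with no filter, against 2540 of 50775 over all features. NONMMUG001536.2 and NONMMUG001499.2 were higher, and NONMMUG001504.2 was lower, with 22.86 counts in day 3 library 1 and 0 in the other libraries. NONMMUG001499.2 had 0 and 59.78 counts in day 3 libraries 1 and 2 and 249.39 and 11.64 in cultured libraries 1 and 2. Its groups overlapped, and its cultured counts were high in library 1 alone. The number called was 0 to 1 with a library left out. NONMMUG001494.2 changed sign to 0.028 in limma with a pseudocount of 0.1 and ran from -1.14 to 0.70 with a library left out, and NONMMUG001503.2 ran from -0.69 to 0.89. The sign changed without day 3 library 1 for the first and without cultured library 1 for the second. Replicate numbers are not said to mark a pairing, and deviations of libraries with the same number had r = -0.120 across features, which are not independent. With a replicate block there were 1204 called features and a value of -5.29 for NONMMUG001516.2. Removal of the 10 most abundant features, chosen after the data were seen, gave 1206 and -5.33. With 2 libraries a group, and 88.92 and 99.33 counts for NONMMUG001516.2 after culture, precision is limited by the number of libraries.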
